A study of Mus musculus with 8 samples.

Results

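Neurexins, neuroligins and LRRTM proteins are synapse organisers, and 9 of their genes were followed here in mouse cortex: the neurexins Nrxn2 and Nrxn3, the neuroligins Nlgn1, Nlgn2 and Nlgn3, and the leucine-rich repeat transmembrane genes Lrrtm1, Lrrtm2, Lrrtm3 and Lrrtm4. They were chosen by name, as the rows carrying these symbols, from a table of 28662 transcripts, of which 10588 passed a filter on low values. All 9 passed it. Neurexins sit in the presynaptic membrane and reach across the cleft, where they bind neuroligins or LRRTMs on the postsynaptic side. These contacts help to recruit release machinery, scaffolds and receptors, and the choice of partner contributes to whether a synapse is excitatory or inhibitory. In the cortex they are best known as products of neurons, and some are also made by glia.

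Poly(A)+ RNA from the right cortex was sequenced in 4 bigenic mice and 4 nontransgenic mice, all C57BL/6. Bigenic mice carried the genotype Camk2a-tTa / deltaNLS-hTDP-43: a Camk2α promoter, active in forebrain excitatory neurons, drives the tetracycline transactivator, which switches on a human TDP-43 whose nuclear localization signal is disabled. TDP-43 is an RNA-binding protein that is normally mostly nuclear. A doxycycline diet kept the transgene off until 28 days of age, and tissue was taken after 10 days without it. Nontransgenic mice, the controls, came from the same crosses and followed the same diet schedule. In each group 3 mice were male. No mice with a single transgene enter the comparison, so an effect of the transactivator alone cannot be told apart from one of the human TDP-43.

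The values are whole numbers, gene counts scaled separately in each mouse, and they are called normalized counts. Between 10.6 and 31.9 M reads per mouse lay on genes, and 3 reads correspond to 1.94 to 6.20 normalized counts. The transgene transcript had 29375 to 41550 normalized counts among the bigenic animals and 5 to 80 in the nontransgenic mice, and endogenous Tardbp had 4908 to 5502 against 6116 to 7116. The excitatory neuron markers Slc17a7, Neurod6 and Tbr1 passed the filter. The bigenic library with the fewest reads, 10.6 M, stood apart from the other 7: its score on the first principal component was -46.0, against -15.1 to -12.8 in the other bigenic mice and 14.0 to 26.5 in the nontransgenic mice. Its departure from the other 3 bigenic libraries followed base composition, with a median of -0.30 on the log2 scale in the decile of genes with the lowest exon GC content and 0.32 in the decile with the highest. It is the second of the 4 values wherever bigenic values are listed, and results that rest on it are also given without it.

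Family members are close enough in sequence that reads might be shared, so the most similar coding stretches are shown first. Reads were 50 bases long and the authors kept those that mapped to a single place. In none of the 10 pairs within a family did any coding window of 50 bases in one member match the other with 2 mismatches or fewer, the most that the mapping allowed. Windows lay within single coding exons. Untranslated exons, exon junctions and reads shortened by adaptor removal were not compared. The closest windows had 4 mismatches for Nrxn2 with Nrxn3 and for Nlgn2 with Nlgn3, 7 for Lrrtm3 with Lrrtm4, and 10 or 11 for the other LRRTM pairs. The closest window of each family is printed from the mm9 genome, 5′ to 3′ on the coding strand, with mismatched bases in capitals. They lie at chr19:6472294-6472343 (+) and chr12:90431526-90431575 (+) for the neurexins, chr11:69640288-69640337 (-) and chrX:98513966-98514015 (+) for the neuroligins, and chr10:63550783-63550832 (-) and chr6:79972918-79972967 (+) for the LRRTMs.
Nrxn2: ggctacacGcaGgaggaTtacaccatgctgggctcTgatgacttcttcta
Nrxn3: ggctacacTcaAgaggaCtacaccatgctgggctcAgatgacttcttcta
Nlgn2: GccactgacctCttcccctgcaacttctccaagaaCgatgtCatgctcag
Nlgn3: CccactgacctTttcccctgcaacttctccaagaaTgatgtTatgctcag
Lrrtm3: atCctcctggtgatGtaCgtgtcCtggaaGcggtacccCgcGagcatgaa
Lrrtm4: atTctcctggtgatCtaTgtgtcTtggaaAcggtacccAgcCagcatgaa

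Of the 9 genes, 4 fell in the bigenic mice (Nrxn3, Lrrtm1, Lrrtm3 and Lrrtm4), Nlgn2 rose, and 4 did not pass the test (Nrxn2, Nlgn1, Nlgn3 and Lrrtm2). The test was limma on log2(normalized count + 1) with Benjamini-Hochberg adjustment over the 10588 genes and a threshold of 0.05. Adjusted p-values of single genes below come from it. Where a mouse is left out or a setting is changed, they come from the same test fitted again to the genes kept there. Those of ratios between family members come from the permutation tests named with them. Among all genes tested 35.9% passed, 15.4% lower and 20.5% higher, so changes past the threshold were common in this tissue. The bigenic and nontransgenic values did not overlap for 3 of the 9 genes, Nrxn3, Lrrtm3 and Lrrtm4, all lower. Over all genes the share lower without overlap was 16.7%, against 22.3% higher and 39.0% in either direction. The median log2 fold change was -0.26 over the 9 genes and 0.03 over all genes tested. Without the library with the fewest reads the same 4 genes fell and 2 rose, Nlgn2 and Nlgn3. In that setting 2126 of 10481 genes were called lower and 2656 higher. Because whole cortex was sequenced, fewer cells of a type and less RNA per cell cannot be told apart.

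**Figure D1:**
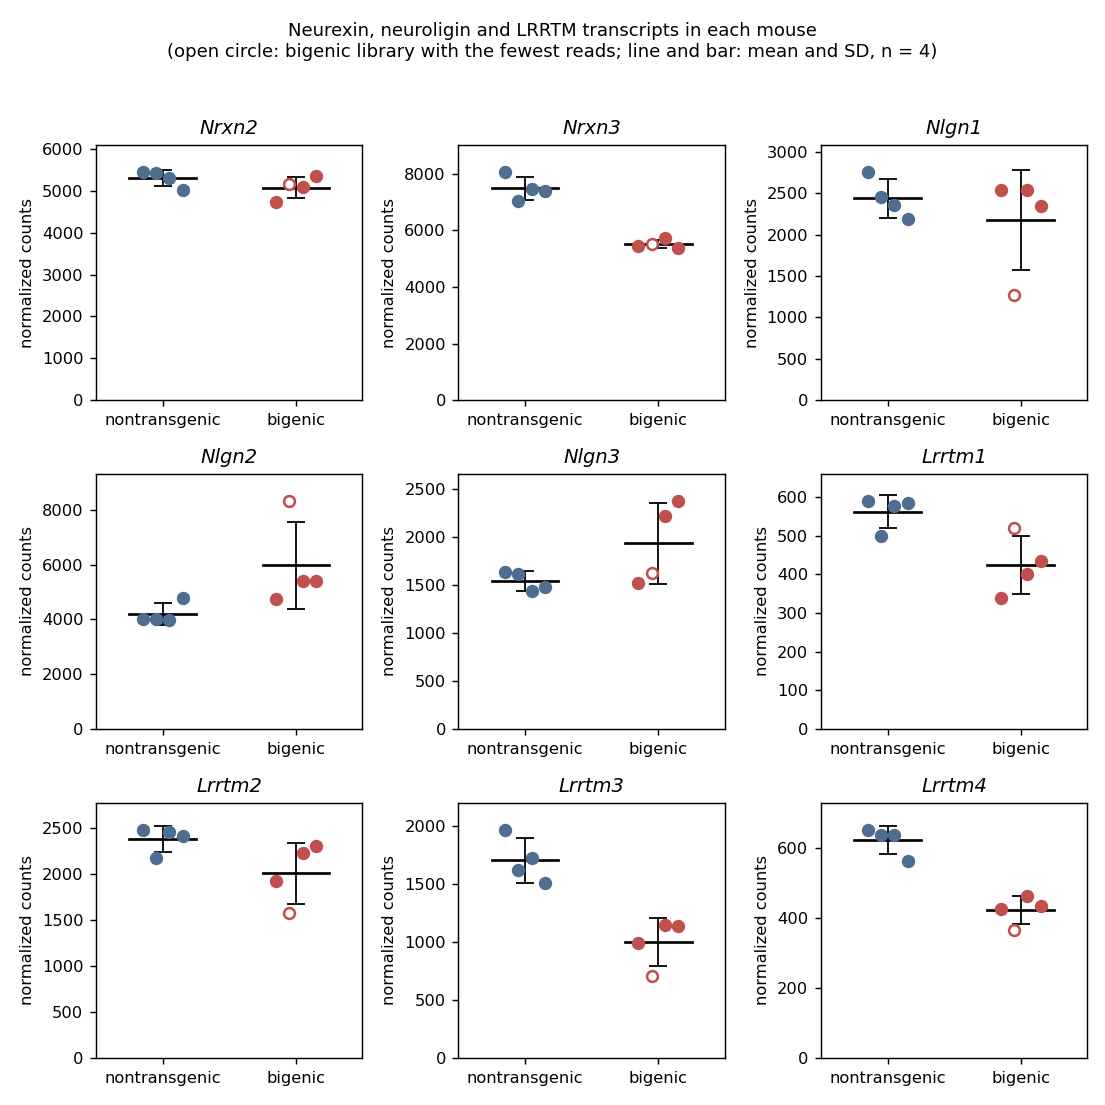
Normalized counts of the 9 genes in each mouse, one panel per gene, with nontransgenic mice on the left and bigenic mice on the right. Each point is a mouse, the line and bar are the mean and SD (n = 4), and the open circle is the bigenic library with the fewest reads. The groups are fully separated for Nrxn3, Lrrtm3 and Lrrtm4, and the open circle is the lowest value of Nlgn1 and the highest of Nlgn2.

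Of the neurexins, Nrxn3 fell and Nrxn2 did not pass the test. Nrxn3 (uc011ypu.1, chr12:89961320-91573375 on the plus strand) had 5435, 5528, 5720 and 5388 normalized counts among the bigenic animals and 8055, 7057, 7457 and 7394 among the controls. Every bigenic mouse lay below every nontransgenic mouse, and the bigenic libraries, including that with the fewest reads, had a coefficient of variation of 2.66%. Its log2 fold change was -0.44 ± 0.07 (SE, n = 4 and 4, adjusted p = 0.0010), so that Nrxn3 fell by 26.3%.

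Nrxn2 (uc008giu.1, chr19:6418731-6544169, plus strand) had 4723, 5152, 5087 and 5350 normalized counts among the bigenic animals. It had 5440, 5418, 5294 and 5024 among the controls. The groups overlapped, and the log2 fold change was -0.06 ± 0.07 (SE, adjusted p = 0.51) with a 95% interval of -0.21 to 0.09, which leaves out a change as large as the estimate for Nrxn3. When a trend on exon GC content and length was removed from each mouse, however, Nrxn2 was called lower (log2 fold change -0.30, adjusted p = 0.048). Its exons are 58.6% GC, in the highest decile of genes. Part of its exon bases is also shared with genes on the opposite strand, 4.84% with Slc22a12, and the counting was not stated to use strand.

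The ratio of Nrxn2 to Nrxn3 within a mouse does not depend on how that mouse was scaled. On the log2 scale it was -0.20, -0.10, -0.17 and -0.01 among the bigenic animals and -0.57, -0.38, -0.49 and -0.56 among the controls. The ratios did not overlap, and the difference between group means was 0.38 (two-sided exact permutation test over 70 arrangements, p = 0.0286, the smallest this design can give; 0.095 after adjustment over the 10 pairs of family members). With the GC and length trend removed the difference was 0.19 (exact permutation test, adjusted p = 0.19).

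The genes whose profile over the 8 mice was nearest to that of Nrxn3 were Reep5, which encodes a membrane-shaping protein of the endoplasmic reticulum, and Ppp1r9a, which encodes the actin-binding synaptic protein neurabin. Their root mean square differences from Nrxn3 were 0.0316 and 0.0374 on the log2 scale after each gene was centred on its own mean.

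Among the neuroligins, Nlgn2, the member found mainly at inhibitory synapses, was the only gene of the 9 called higher. Nlgn2 (uc007jrw.1, chr11:69636624-69651286, minus strand) had 4759, 8316, 5411 and 5418 normalized counts among the bigenic animals and 4028, 4008, 3987 and 4788 among the controls. The groups overlapped slightly, since the highest nontransgenic mouse lay above the lowest bigenic mouse, and the library with the fewest reads was far above the rest. The fold change on the log2 scale was 0.48 ± 0.16 (SE, adjusted p = 0.038). Without that library it was 0.31 ± 0.08 (SE, adjusted p = 0.00997), smaller but still called. Leaving out any of 4 other mice ended the call, with adjusted p-values of 0.054 to 0.094. Nlgn2 has the highest exon GC content of the 9 genes, 60.5%, and with the GC and length trend removed its log2 fold change was 0.26 and it remained called. It lies in the decile of genes with the highest exon GC content, where 30.5% of genes were called higher and 9.30% lower.

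Nlgn1, the member best known at excitatory synapses, showed no difference that passed the test. Nlgn1 (uc008otb.1, chr3:25330733-26032656, minus strand) had 2538, 1276, 2543 and 2347 normalized counts among the bigenic animals and 2750, 2451, 2359 and 2193 among the controls. The library with the fewest reads was the lowest of all 8, and the other 3 bigenic mice lay within the nontransgenic range. The log2 fold change was -0.21 ± 0.20 (SE, adjusted p = 0.44), with a 95% interval of -0.67 to 0.24. Without that library it was 0.03 ± 0.08 (SE, adjusted p = 0.81), so the lower mean rested on that library. Nlgn1 exons are 41.1% GC, in the lowest decile of genes.

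Nlgn3, which is found at both excitatory and inhibitory synapses, spread widely among the bigenic mice. Nlgn3 (uc009txj.2, chrX:98491178-98521302, plus strand) had 1528, 1630, 2224 and 2378 normalized counts among the bigenic animals. It had 1642, 1617, 1439 and 1481 among the controls. In the bigenic mice 2 values lay within the nontransgenic range and 2 lay well above it. Its log2 fold change was 0.30 ± 0.14 (SE, adjusted p = 0.12), with a 95% interval of -0.01 to 0.62. It was called higher without the library with the fewest reads (0.38, adjusted p = 0.036), without the bigenic mouse with the lowest value (0.41, adjusted p = 0.044) and with limma's array weights, which give each mouse a weight from its own spread (0.53, adjusted p = 0.0001). Of the Nlgn3 exon bases, 6.80% are also annotated to Med12 on the same strand.

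The log2 ratio of Nlgn1 to Nlgn2 was -0.91, -2.70, -1.09 and -1.21 among the bigenic animals and -0.55, -0.71, -0.76 and -1.13 among the controls. The groups overlapped and the means differed by -0.69 (exact permutation p = 0.0857). The ratio of Nlgn1 to Nlgn3 differed by -0.52 (exact permutation p = 0.11) and that of Nlgn2 to Nlgn3 by 0.17 (exact permutation p = 0.71). Without the library with the fewest reads these 3 differences were -0.28, -0.35 and -0.07, so the first was smaller and the last turned its sign.

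LRRTMs are postsynaptic neurexin partners of excitatory synapses, and 3 of the 4 fell. Lrrtm3 (uc007fkk.1, chr10:63391220-63553025, minus strand) showed the largest decrease of the 9 genes. It had 987, 705, 1148 and 1139 normalized counts among the bigenic animals and 1962, 1618, 1719 and 1509 among the controls. All bigenic values lay below all nontransgenic values, and the lowest came from the library with the fewest reads. The fold change on the log2 scale was -0.79 ± 0.15 (SE, adjusted p = 0.0037), so that Lrrtm3 fell by 42.3%. It was -0.64 ± 0.09 (SE, adjusted p = 0.00035) without that library.

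Lrrtm4 (uc012enq.1, chr6:79968871-80760137, plus strand), whose product binds heparan sulfate proteoglycans such as glypicans as well as neurexins, had 427, 366, 463 and 434 normalized counts among the bigenic animals. It had 652, 639, 639 and 564 among the controls. The groups did not overlap. The log2 fold change was -0.56 ± 0.10 (SE, adjusted p = 0.0018), a fall by 32.3%. The lowest value rests on about 177 reads, the fewest behind any value of the 9 genes, which gives a counting error of 7.52%. Of the Lrrtm4 exon bases, 25.1% are also annotated on the opposite strand, to the processed transcript Gm4409, and reads of the 2 genes cannot be told apart there without strand.

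Lrrtm1 (uc009cjt.1, chr6:77192683-77207785, plus strand) had 340, 519, 400 and 434 normalized counts among the bigenic animals and 589, 498, 576 and 585 among the controls. The groups overlapped only through the library with the fewest reads, which was the highest bigenic value, and through the lowest nontransgenic value. Its log2 fold change was -0.42 ± 0.13 (SE, adjusted p = 0.028). It was -0.53 ± 0.10 (SE, adjusted p = 0.0016) without that library, but leaving out any of 5 other mice ended the call, with adjusted p-values of 0.059 to 0.078.

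Lrrtm2 (uc008ema.1, chr18:35368665-35374678, minus strand) had 1931, 1574, 2232 and 2306 normalized counts among the bigenic animals and 2481, 2175, 2459 and 2417 among the controls. The bigenic mice tended to lie lower, with overlap. The fold change on the log2 scale was -0.26 ± 0.12 (SE, adjusted p = 0.12), with a 95% interval of -0.53 to 0.01. Without the library with the fewest reads, which was the lowest, it was -0.15 ± 0.08 (SE, adjusted p = 0.15).

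Ratios within a mouse compare the size of the change between LRRTM genes. The log2 ratio of Lrrtm2 to Lrrtm3 was 0.97, 1.16, 0.96 and 1.02 among the bigenic animals and 0.34, 0.43, 0.52 and 0.68 among the controls, without overlap. The means differed by 0.54 (exact permutation p = 0.0286, adjusted 0.095). The ratio of Lrrtm2 to Lrrtm4 was 2.10 to 2.41 in the bigenic mice and 1.77 to 2.10 in the nontransgenic mice, with a difference of 0.30 (exact permutation p = 0.0286, adjusted 0.095). Its groups were separated by less than 0.01, and with a pseudocount of 10 in place of 1 they overlapped. The ratio of Lrrtm3 to Lrrtm4 differed by -0.23 (exact permutation p = 0.0571), and by -0.14 without the library with the fewest reads. The 3 ratios with Lrrtm1 as numerator differed by -0.16 against Lrrtm2, 0.37 against Lrrtm3 and 0.14 against Lrrtm4, with exact permutation p-values of 0.66, 0.14 and 0.66. Without that library they differed by -0.38, 0.11 and -0.03, the last with its sign turned. The 3 ratios that did not overlap moved less without it, to 0.37 for Nrxn2 to Nrxn3, 0.49 for Lrrtm2 to Lrrtm3 and 0.35 for Lrrtm2 to Lrrtm4. Over the 10 pairs of the 3 families, 3 reached an exact permutation p below 0.05. After adjustment 0 did, and the smallest possible p of 0.0286 allows it only when more pairs reach that value. Among all single genes tested, 39.0% did not overlap between the groups. Ratios of other gene pairs were not computed, so the share of separated pairs to set beside these 3 is not known.

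**Figure D2:**
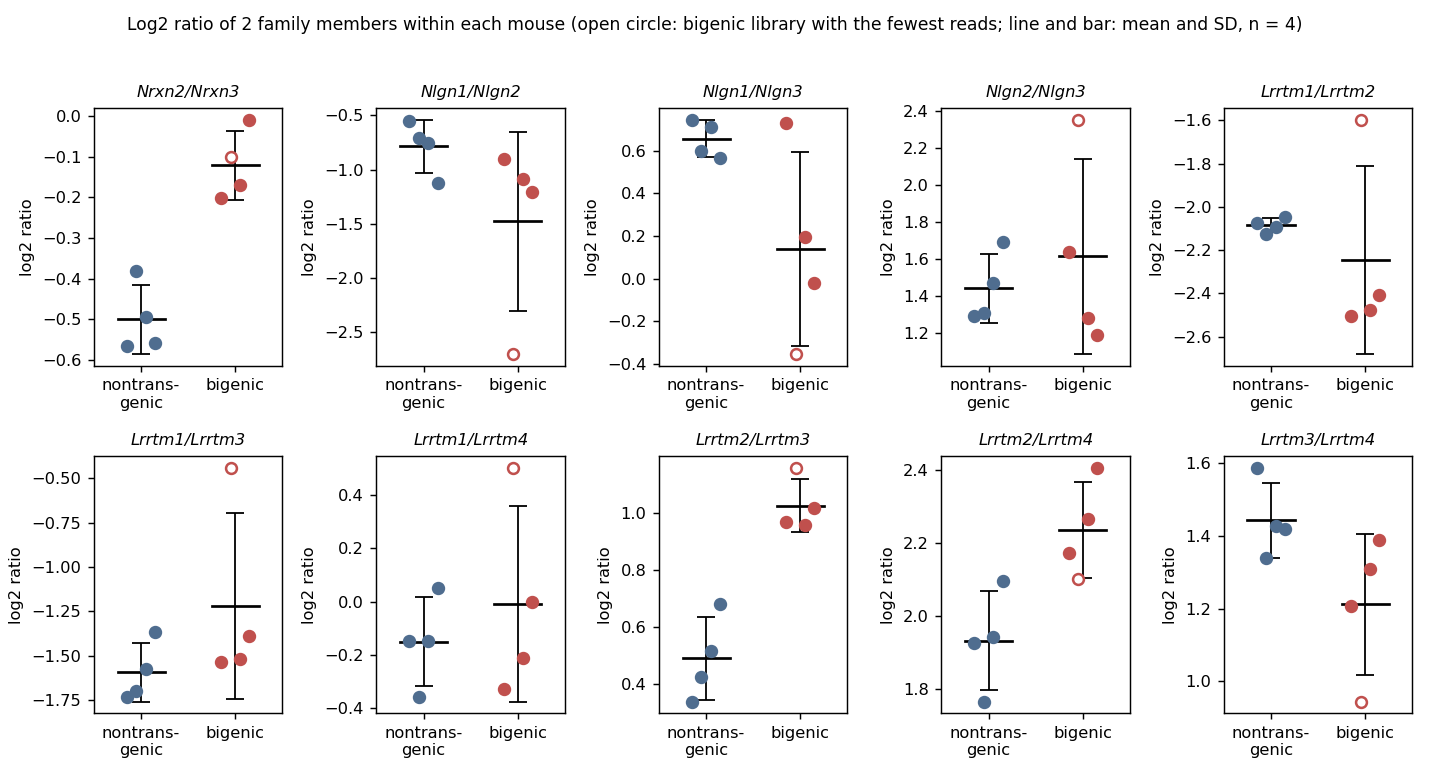
Log2 ratio of the normalized counts of 2 family members within each mouse, for the 10 pairs. Each point is a mouse, the line and bar are the mean and SD (n = 4), the open circle is the bigenic library with the fewest reads, and each panel has its own vertical scale. The groups are separated for Nrxn2/Nrxn3, Lrrtm2/Lrrtm3 and Lrrtm2/Lrrtm4, and the open circle is the lowest value of Nlgn1/Nlgn2 at -2.70.

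The profile over the 8 mice nearest to Lrrtm4 was that of Dlg1, a scaffold gene, followed by Fbxl17, which encodes an F-box protein (root mean square differences of 0.0384 and 0.0397 on the log2 scale). Those nearest to Lrrtm3 were Elavl4, which encodes a neuronal RNA-binding protein, and Zfand6, which encodes a zinc finger protein (0.0594 and 0.0597).

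Per kilobase of annotated exon, the order of levels in the nontransgenic mice ran from Nlgn2 to Lrrtm4. Nlgn2 had 726 ± 67.5 normalized counts per kb (SD, n = 4), followed by Nrxn3 with 593 ± 32.9, Nlgn1 with 559 ± 53.6, Lrrtm2 with 421 ± 24.9, Lrrtm3 with 400.4 ± 45.5 and Nrxn2 with 383 ± 13.8. Lower levels were found for Lrrtm1 with 185 ± 14.2, Nlgn3 with 140.3 ± 9.07 and Lrrtm4 with 101 ± 6.53. Nrxn3 and Nlgn1 differed by less than the SD of Nlgn1, and Lrrtm2, Lrrtm3 and Nrxn2 differed from each other by less than the SD of Lrrtm3. In the bigenic mice Nlgn2 had 1033 ± 275, Nlgn1 499 ± 139, Nrxn3 437 ± 11.6, Nrxn2 368 ± 18.9 and Lrrtm2 355 ± 58.8 normalized counts per kb. Below them came Lrrtm3 with 234 ± 48.6, Nlgn3 with 176 ± 38.5, Lrrtm1 with 139.5 ± 24.6 and Lrrtm4 with 68.7 ± 6.63. Nrxn3 thus stood below Nlgn1, and Lrrtm3 below Nrxn2, while the gaps between Nlgn1 and Nrxn3, between Nrxn2 and Lrrtm2 and between Nlgn3 and Lrrtm1 were within the larger SD of each pair. The exon length is that of all annotated exons of a gene, which need not be those used in cortex.

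**Figure D3:**
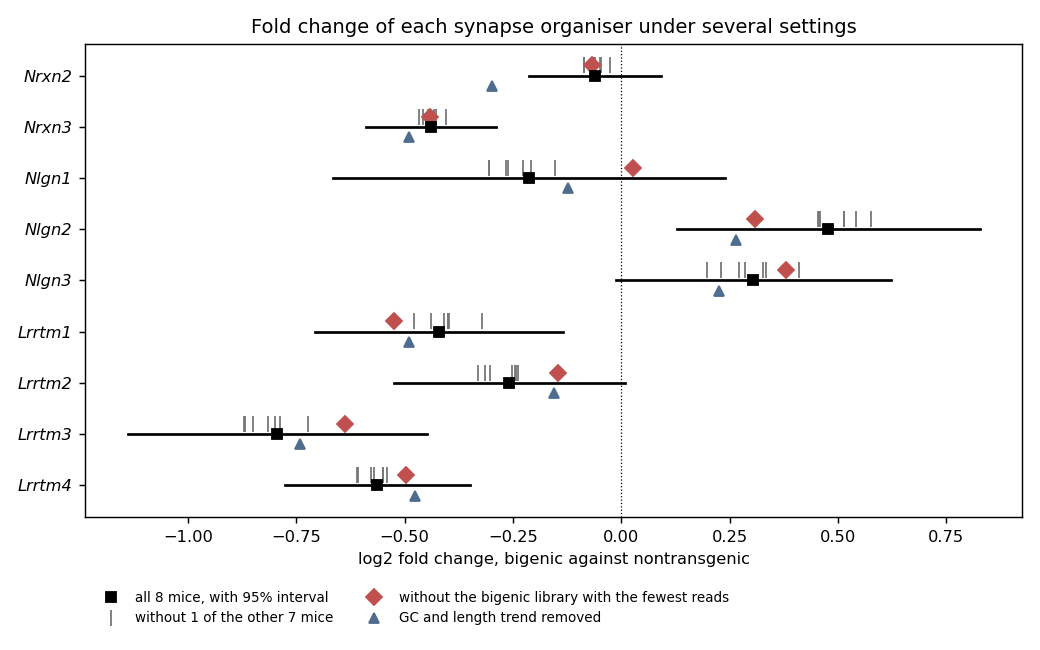
Log2 fold change of each gene, bigenic against nontransgenic, with all 8 mice (squares, line: 95% interval), without 1 mouse (vertical ticks, and red diamonds for the bigenic library with the fewest reads), and with the GC and length trend removed (triangles). All estimates of Nrxn3, Lrrtm3 and Lrrtm4 lie below -0.40, while the diamond of Nlgn1 lies at 0.03.

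The stability of the calls differed. Nrxn3, Lrrtm3 and Lrrtm4 were called lower under all 16 alternatives tried, with adjusted p-values of at most 0.0058, 0.015 and 0.0093 and log2 fold changes of -0.49 to -0.40, -0.87 to -0.60 and -0.61 to -0.48. Nlgn2 and Lrrtm1 were each called under 11 of the 16, with the direction kept throughout.

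The 9 genes differ widely in length, and the long introns of several were known when they were chosen. Nrxn3 spans 1612 kb, Lrrtm4 791 kb, Nlgn1 702 kb and Lrrtm3 162 kb, all in the longest decile of genes tested. In that decile 25.5% of genes were called lower and 15.3% higher. Nlgn1, of this length, was not called. Nrxn2 spans 125 kb and Nlgn3 30.1 kb, while Lrrtm1 with 15.1 kb, Nlgn2 with 14.7 kb and Lrrtm2 with 6.01 kb are short genes. Of the 4 genes that fell, 3 are thus among the longest genes and Lrrtm1 is not.

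TDP-43 is known to bind UG-rich RNA, so runs of TG in the introns of the members are described. The motif searched was TGTGTGTGTGTG, 6 or more TG units in a row, on the sense strand of introns in mm9 (runs on the other strand were counted apart). Of the genes tested with a gene model, 71.5% held at least 1 such run, with a median of 8.37 per 100 kb of intron. Nrxn3 held 153 (9.57 per 100 kb), Lrrtm4 121 (15.4), Nlgn1 63 (9.03), Nrxn2 27 (24.2), Lrrtm3 20 (12.7) and Nlgn3 4 (20.9). Nlgn2 and Lrrtm1 held 1 each, and Lrrtm2, with 0.349 kb of intron, held 0. On the other strand the introns held 147 for Nrxn3, 95 for Lrrtm4, 70 for Nlgn1 and 20 for Lrrtm3. For Nrxn2, Nlgn3, Nlgn2, Lrrtm1 and Lrrtm2 the other strand held 4, 2, 2, 3 and 0. Runs in the long genes were thus about as common on the strand that is not transcribed into the gene's RNA. Runs were therefore present in genes that fell, in Nlgn2 and in genes that were not called. A printed run is a description of the gene and not a binding site. The runs shown, with the TG units in capitals and 3 flanking bases on each side, lie at chr12:89980374-89980403 (+), chr6:80271098-80271127 (+), chr10:63422331-63422358 (-), chr3:25422559-25422588 (-) and chr11:69645893-69645914 (-). They stand for the 3 genes that fell under all alternatives, for Nlgn1 and for Nlgn2.
Nrxn3: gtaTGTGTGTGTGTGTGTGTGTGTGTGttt
Lrrtm4: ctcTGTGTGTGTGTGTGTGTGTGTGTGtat
Lrrtm3: tgcTGTGTGTGTGTGTGTGTGTGTGaga
Nlgn1: tacTGTGTGTGTGTGTGTGTGTGTGTGtaa
Nlgn2: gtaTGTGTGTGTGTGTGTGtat

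Lrrtm1, Lrrtm2 and Lrrtm3 each lie inside an alpha-catenin gene, on the opposite strand: Lrrtm1 in Ctnna2, Lrrtm2 in Ctnna1 and Lrrtm3 in Ctnna3. Alpha-catenins link cadherins to actin. No exon base is shared in any of the 3 places. Reads from host introns over the LRRTM exons could still be counted to the LRRTM gene if strand was not used. Their share was not tested. Ctnna2, the host of Lrrtm1, had 3057, 3501, 3061 and 2975 normalized counts among the bigenic animals and 4353, 4222, 4628 and 4674 among the controls. It fell without overlap, with a log2 fold change of -0.51 ± 0.08 (SE, adjusted p = 0.0010). Lrrtm1 also fell, with a log2 fold change of -0.42, but its groups overlapped. Ctnna1, the host of Lrrtm2, had a log2 fold change of 0.08 ± 0.09 (SE, adjusted p = 0.52), beside -0.26 for Lrrtm2, and neither passed the test. Ctnna3, the host of Lrrtm3, was not tested.

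Beyond the 9 genes, 79 of 89 other listed genes of trans-synaptic adhesion were tested: 23 were called lower and 13 higher, which is 29.1% and 16.5%, against 15.4% and 20.5% of all genes. Their median log2 fold change was -0.04. Without the library with the fewest reads, 26 of the 79 were called lower and 17 higher. Calls over all genes also became more common there, with 2126 of 10481 lower and 2656 higher.

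The list of secreted ligands and cis modulators had no gene called higher. Several of its genes encode proteins that bridge neurexins to other receptors or bind organisers in the same membrane. The netrin-G genes were listed with them. Of 16 listed, 10 were tested, 6 fell and 0 rose, and the median over the list was -0.36 on the log2 scale. Cbln2 and Cbln4 encode cerebellins, secreted proteins that bind neurexins. Cbln2 had 352, 443, 642 and 613 normalized counts among the bigenic animals and 1189, 1108, 1401 and 1084 among the controls, without overlap (log2 fold change -1.25 ± 0.18, SE, adjusted p = 0.0008). Cbln4 had 137, 54, 213 and 130 against 576, 420, 479 and 413, without overlap (log2 fold change -1.96 ± 0.34, SE, adjusted p = 0.0021). Both estimates were larger than that of any of the 9 genes. The genes that fell also included the neurexin ligands Nxph1 (-0.52) and Nxph3 (-0.27), and Mdga1 (-0.27), whose product binds neuroligins in cis. Ntng2 (-0.68), a netrin-G gene, completed the 6. These last 4 were named after their values were seen.

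The intracellular scaffolds, which hold the cytoplasmic tails of neurexins and of postsynaptic organisers, had calls in both directions. Of 24 tested, 10 fell, 3 rose and 11 were not called, and the list median was -0.11 (log2). Dlg1, a scaffold of the PSD-95 family, had 4089, 3553, 4722 and 4315 normalized counts among the bigenic animals and 6146, 6020, 6307 and 5625 among the controls (log2 fold change -0.54 ± 0.09, SE, adjusted p = 0.0020). Cask, whose product binds the neurexin tail, had a log2 fold change of -0.37 ± 0.07 (SE, adjusted p = 0.0039). In the other direction, Dlgap3 had 6150, 8947, 6471 and 7478 normalized counts against 3543, 3938, 4294 and 4211 (log2 fold change 0.85 ± 0.12, SE, adjusted p = 0.0007), and Dlgap2 rose by 0.48 ± 0.08 on the log2 scale (SE, adjusted p = 0.0018). Both encode scaffold proteins of the excitatory postsynaptic density. The third gene called higher was Magi2 (0.26), named after its value was seen.

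The other presynaptic organisers went in both directions: of 10 tested, 3 rose and 2 fell, and the list median was 0.06 (log2). Lphn1, a latrophilin, had 14163, 18381, 14782 and 15379 normalized counts among the bigenic animals and 10114, 10027, 10308 and 10706 among the controls, without overlap (log2 fold change 0.60 ± 0.09, SE, adjusted p = 0.0008). The teneurin gene Odz4 rose (0.38, adjusted p = 0.0094), as did Odz2 (0.36), named after its value was seen. Ptprd, a receptor tyrosine phosphatase of the presynaptic membrane, fell (-0.46, adjusted p = 0.010), and so did the teneurin gene Odz1 (-0.34, adjusted p = 0.023).

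The other postsynaptic organisers were also divided: of 28 tested of 29 listed, 7 rose and 3 fell, and the list median was 0.09 (log2). Flrt1 (0.52, adjusted p = 0.0053) and Lrrc4b (0.35, adjusted p = 0.0063) rose. Clstn2 (-0.36, adjusted p = 0.012) and Lrrc4 (-0.44, adjusted p = 0.020) fell, as did Slitrk2 (-0.29), named after its value was seen. All 5 encode membrane proteins with extracellular adhesion domains.

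Of 7 listed genes for splicing and shedding of neurexins and neuroligins, 5 were tested and Khdrbs3 passed, with a log2 fold change of -0.42 ± 0.10 (SE, adjusted p = 0.012). Khdrbs3 encodes an RNA-binding protein that controls an alternative exon of neurexin transcripts. Isoforms of the members were not analysed here, since the values are sums over each gene.

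**Figure D4:**
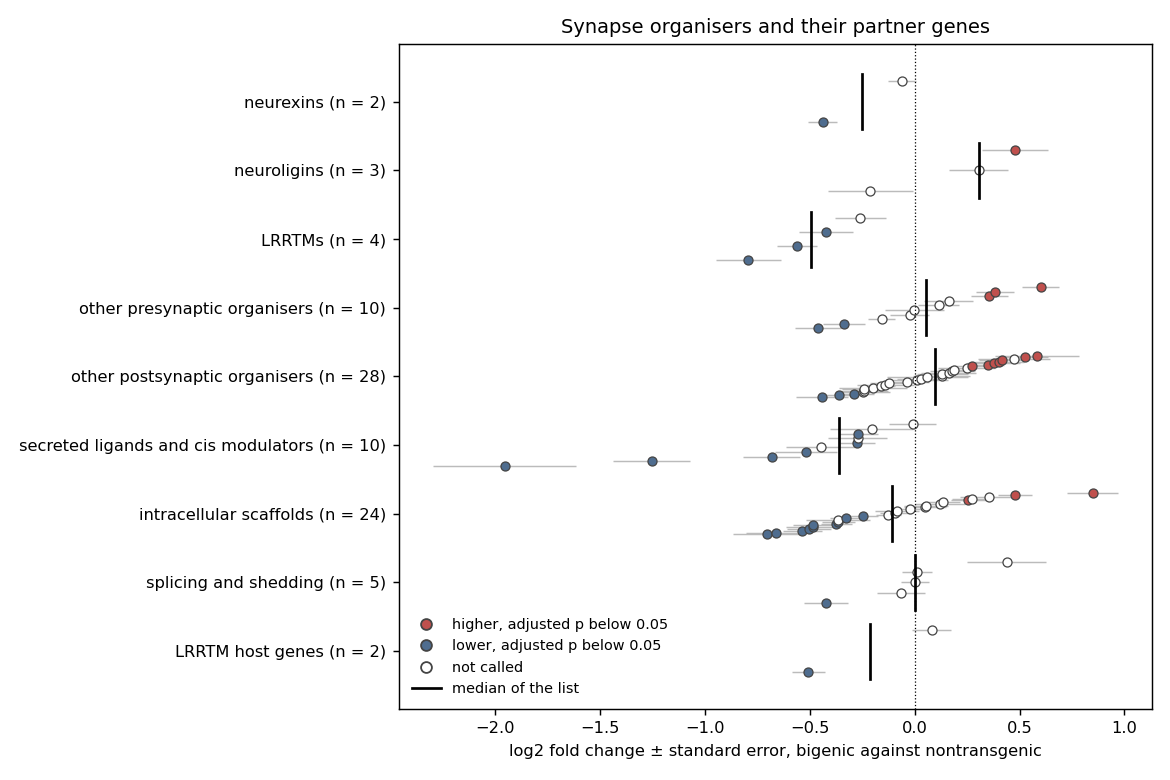
Log2 fold change of each gene tested (points, line: standard error), bigenic against nontransgenic, by list, with the median of each list as a vertical bar. The secreted ligands and cis modulators have no gene called higher, and Cbln2 and Cbln4 at -1.25 and -1.96 are their lowest points.

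Markers of the cells and neighbouring regions that the dissection could hold were read in the same libraries. Pan-neuronal markers went in both directions, with 3 of 6 lower and 1 higher. Of the excitatory neuron markers, Camk2a, whose promoter drives the transactivator, was lower (log2 fold change -0.88), with 22112 to 30548 normalized counts in the bigenic mice and 44895 to 49794 in the nontransgenic mice, while Slc17a7 (0.15), Neurod6 (-0.18) and Tbr1 (-0.24) were not called. Inhibitory neuron markers had 2 of 6 lower (15136 to 15723 against 16917 to 18678). Glial and vascular markers included 4 of 7 lower for astrocytes, 5 of 6 lower for microglia, 1 of 5 lower for endothelium, 1 of 6 higher for oligodendrocytes and 0 of 4 called for oligodendrocyte precursors. Over all genes tested 15.4% were called lower and 20.5% higher, so a single call in a short list is near that share.

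Of the regions outside the cortex, choroid plexus and thalamus had markers that passed the test. The 5 choroid plexus markers tested of 10 listed were all higher, by a median of 2.40 on the log2 scale. Of these, Kl, Clic6, F5 and Prlr reached at most 99, 46, 36 and 78 normalized counts in the nontransgenic mice. They passed the filter only through bigenic mice, so their direction was largely set by the filter. The other, Ttr, had 7741 to 18520 normalized counts in the bigenic mice and 236 to 1023 in the nontransgenic mice. It made up most of the summed level of the list, 8559 to 19772 against 410 to 1281. Both thalamus markers tested of 3 listed were lower, with sums of 416 to 596 against 912 to 1113. None of 5 striatum markers passed the test, and their sum was 4781 in a bigenic mouse that was not the library with the fewest reads and 1361 to 1965 in the other 3, against 1764 to 2825. No tested marker of these lists was at 0. The choroid plexus and thalamus levels moved with the same groups as the synapse organisers. The part of all these markers in the differences of the 9 genes and their partners was not tested.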

How the data were processed

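Per the methods and labels, the authors removed adaptors (cutadapt), aligned reads to the mm9 genome using Bowtie 0.12.7, kept uniquely mapping reads, counted reads per exon with bedtools and summed exons into genes. The deposited signal is these gene counts scaled by 1 factor for each mouse, then rounded, in 1 column per mouse, which is not described in the methods. A second deposited table holds the authors' mean signal, log2 fold changes with standard errors, p-values and q-values from DESeq2. It was used for gene symbols only.

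The worth of 1 read in each column was estimated from the regular step of its whole numbers. Since whole reads could not be recovered in every column, no count test was run, and the study's DESeq2 comparison was replaced by limma 3.58.1 (lmFit, eBayes with a trend) in R 4.3.3 on log2(value + 1), which understates the change of low genes. Genes reaching 10 RPM of the total of a column in 1 mouse or more were kept, and all 8 mice entered without covariates. Paralog ratios were compared with exact permutation tests. The script was tested on simulated data. Other steps ran in Python 3.11.15 with scipy 1.17.1, pandas 2.3.3 and numpy 2.4.6.

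Columns name the group but not the replicate, so the labels' replicate numbers were not used, and the labels give no batch. Positions, exon GC content and length come from GENCODE on mm9 (96.4% of tested symbols had a model). The genes named are the 9 members, the 2 with the smallest adjusted p-value per direction in each partner list, the alpha-catenin hosts, and the 2 nearest profiles of the 3 members with the smallest adjusted p-value. Others were named after their values were seen. The members and lists were chosen with earlier results of these data known. Alternatives were pseudocounts of 10 and 0.1, no filter, a filter in every mouse, equal totals, quantile normalization, array weights and leaving out each mouse. A quadratic correction of each mouse for exon GC content and length was chosen after seeing the data. Exon-level splicing was not analysed here, and 1 listed marker is not reported here.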

Additional observations from a re-analysis of the deposited data

Results flagged for a closer look

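In each group of 4 mice the highest and the lowest value of each of the 9 genes was compared with the others by Dixon's test at the 95% level. Of 18 groups 4 held a mouse far from the rest. Chance alone gives about 1 in 20 groups, but the 9 genes were read in the same mice. The groups are therefore not independent, and the count is not a test. Nlgn1 was at 1276 normalized counts in the bigenic library with the fewest reads, against 2347 in the nearest of the other bigenic mice. Nlgn2 was at 4788 in a nontransgenic mouse, against 4028 in the nearest of the others. Lrrtm1 was at 498 in a nontransgenic mouse, against 576 in the nearest. Lrrtm4 was at 564 in a nontransgenic mouse, against 639 in the nearest, and that is the mouse with the high Nlgn2 value. Without the first of these libraries the log2 fold change of Nlgn1 was 0.03.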

How the results depend on the processing

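No paired analysis was possible because the columns of the deposited table carry no replicate numbers. The number of the 9 genes called higher was 1 with all mice, 2 with array weights, 0 with no filter on low values and 0 to 2 when 1 mouse was left out. The number called lower was 3 to 4 when 1 mouse was left out and 5 with the GC and length trend removed. Of the other listed genes of trans-synaptic adhesion, 26 were called higher and 31 lower with array weights, 7 to 17 higher and 16 to 26 lower when 1 mouse was left out, and 10 higher and 27 lower with the GC and length trend removed. Pairs of family members whose ratios did not overlap numbered 3 to 5 when 1 mouse was left out, and 2 with a pseudocount of 10 or with the trend removed. The direction reversed for Nlgn1 without the bigenic library with the fewest reads (0.026, in a range of -0.305 to 0.026 over the mice left out) and for the Lrrtm1 to Lrrtm4 ratio with the trend removed (-0.013). Without that library the differences of the Nlgn2 to Nlgn3 and Lrrtm1 to Lrrtm4 ratios also turned, to -0.072 and -0.029, and none of these differences passed a test with all mice. Over all genes, 3796 were called with all mice, 6455 with array weights, and 2654 to 4782 when 1 mouse was left out. The causes were not tested. Depth limits Lrrtm4 and Lrrtm1 most, whose lowest values rest on about 177 and 251 reads.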
